A study of Drosophila melanogaster with 2 samples.

Results

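Peaks of the Drosophila melanogaster protein CG13287 that lay between head-to-head genes numbered 1664 of the 5955 peaks on the chromosome arms, or 27.9% (exact 95% interval 26.8 to 29.1, which like all intervals here covers counting error only). A peak was taken where its summit, the position of highest signal, fell between the transcription start sites (TSSs) of 2 different protein-coding genes. These genes lay on opposite strands, pointed away from each other and had TSSs at most 1000 bp apart. Among the 5020 peaks within 500 bp of a protein-coding TSS, the members made up 33.1% (interval 31.8 to 34.5). The remaining 3356 served as the comparison and are called other promoter peaks. The closest flanking TSSs named 1462 gene pairs with 2909 genes. Only 1 gene pair flanked the summit in 1561 members, and more than 1 in the other 103.

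Head-to-head genes share the stretch of DNA between their start sites, so a protein bound there lies upstream of both genes. Compact insect genomes hold many such stretches, and they are rich in genes that most cells use, such as those for protein synthesis, protein breakdown and mitochondria. Their promoters often carry the DNA replication-related element (DRE), bound by the factor DREF, whose core is ATCGAT, or the site of the factor M1BP, GGTCACACT. The insulator protein BEAF-32 binds CGATA words, which overlap the longer DRE word TATCGATA.

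The assay was chromatin immunoprecipitation and sequencing (ChIP-seq) in whole embryos aged 6 to 24 h of a single strain, in which an eGFP tag marks CG13287 and an anti-GFP antibody recovered it. Sonication gave fragments of 200 to 800 bp. There were 2 biological replicates of 1 group, with no other genotype, stage or treatment. All embryos carried the fusion, every tissue was pooled, and the labels do not say whether the untagged protein was also present. The deposited lists gave 4014 peaks for replicate 1, 7340 for replicate 2 and 5955 for the conservative list made from both, and the depth of the libraries is unknown. Signals are the values in these lists, and the scale of the joint list may differ from that of the single ones. With 1 group no test over samples was possible, so what follows are counts, medians and ranges.

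The DNA of members is shown where the whole stretch between the TSSs was at most 300 bp and free of annotated exons. Sequences are the plus strand of the Release 6 (dm6) genome, from the base after the left TSS to the base before the right TSS. Capitals mark the DRE core and the M1BP site. The 8 stretches given were taken by signal from named members with a word, but not from every chromosome arm. Other named members with a core and a higher signal than some of these lie on an arm left out, so the 8 are examples. The first set has TSSs up to 200 bp apart and a core beside the summit. Between eIF3a, a subunit of a translation initiation factor, and CG1074 (chr3R:4433896-4433964) the summit stood 35 bp from the left TSS and 0.5 bp from the middle of the only core. Between TrpRS, the tryptophanyl-tRNA synthetase, and Vps16A, a subunit of membrane tethering complexes (chr3R:9266905-9267018), there were 3 cores, and the summit was 6.5 bp from the nearest. Between janA and Sry-alpha, a gene needed when the embryo forms its first cells (chr3R:30039534-30039718), there were 2 cores, 1 towards each end, and the summit was 16.5 bp from the nearer. Between GlnRS, the glutaminyl-tRNA synthetase, and the kinase gene RIOK2 (chr3R:25265722-25265843) the single core was 23.5 bp from the summit.
eIF3a/CG1074: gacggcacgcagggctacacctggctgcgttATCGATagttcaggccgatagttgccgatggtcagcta
TrpRS/Vps16A: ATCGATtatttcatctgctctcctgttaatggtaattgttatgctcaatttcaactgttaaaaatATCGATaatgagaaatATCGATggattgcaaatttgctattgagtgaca
janA/Sry-alpha: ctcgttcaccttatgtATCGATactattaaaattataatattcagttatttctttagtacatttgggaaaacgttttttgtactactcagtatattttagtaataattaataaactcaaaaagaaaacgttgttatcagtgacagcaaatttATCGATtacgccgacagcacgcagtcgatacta
GlnRS/RIOK2: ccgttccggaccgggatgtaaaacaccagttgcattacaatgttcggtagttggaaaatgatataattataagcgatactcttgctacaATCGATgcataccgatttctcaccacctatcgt

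The second set has TSSs 200 to 300 bp apart, where the distance from the summit to the nearest core varied more. Between Nle, which acts in ribosome assembly, and the splicing factor gene Sf3b1 (chr2L:568122-568339) the summit lay 121 bp from the left TSS. It was 86.5 bp from the DRE core near Nle and 84 bp from the M1BP site near Sf3b1. Between mRpL39, a mitochondrial ribosomal protein, and the proteasome subunit gene Prosbeta2 (chr3L:14999667-14999950) a core stood near each TSS, and the summit was 68.5 bp from the nearer core. Between CG1105 and CG1965 (chr3R:7067137-7067400) there was no core and no M1BP site, and the summit lay 126 bp from the left TSS. This last stretch was added, with values in view, as an example without either word, and its signal is not compared with the others. A core was nearer to the summit in the remaining stretches of this width. Between wfs1, the gene of an endoplasmic reticulum protein, and the nucleoporin gene Nup133 (chr3R:22690381-22690606) it was 42.5 bp away. Between elm and the Mediator gene MED27 (chr3R:5654862-5655138) it was 37.5 bp away.
Nle/Sf3b1: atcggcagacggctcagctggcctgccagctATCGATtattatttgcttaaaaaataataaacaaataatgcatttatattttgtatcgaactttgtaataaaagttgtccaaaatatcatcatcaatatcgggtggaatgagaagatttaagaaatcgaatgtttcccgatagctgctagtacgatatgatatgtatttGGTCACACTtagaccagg
mRpL39/Prosbeta2: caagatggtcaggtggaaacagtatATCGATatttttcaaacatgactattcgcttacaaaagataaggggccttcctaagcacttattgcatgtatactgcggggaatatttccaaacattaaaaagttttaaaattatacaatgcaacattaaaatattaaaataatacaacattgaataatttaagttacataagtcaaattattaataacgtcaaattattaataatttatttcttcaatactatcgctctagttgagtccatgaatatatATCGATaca
wfs1/Nup133: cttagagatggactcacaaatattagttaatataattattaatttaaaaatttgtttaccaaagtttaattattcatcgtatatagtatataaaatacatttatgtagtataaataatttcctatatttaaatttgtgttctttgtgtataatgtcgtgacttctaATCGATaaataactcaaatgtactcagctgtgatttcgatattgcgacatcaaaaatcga
elm/MED27: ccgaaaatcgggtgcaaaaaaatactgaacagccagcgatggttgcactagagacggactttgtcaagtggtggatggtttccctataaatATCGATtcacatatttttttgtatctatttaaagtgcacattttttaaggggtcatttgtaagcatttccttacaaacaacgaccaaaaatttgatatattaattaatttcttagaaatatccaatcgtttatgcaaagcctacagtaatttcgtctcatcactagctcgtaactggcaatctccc
CG1105/CG1965: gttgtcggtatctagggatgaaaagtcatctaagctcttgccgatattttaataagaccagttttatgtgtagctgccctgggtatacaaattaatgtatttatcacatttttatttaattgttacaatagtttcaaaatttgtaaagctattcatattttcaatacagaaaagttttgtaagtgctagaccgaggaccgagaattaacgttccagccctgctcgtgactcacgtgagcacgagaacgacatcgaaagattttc

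Each library held a peak at every stretch shown. At eIF3a/CG1074 the signal was 953 in the joint list, 371 in replicate 1 and 581 in replicate 2. At TrpRS/Vps16A these values were 1467, 591 and 889. At janA/Sry-alpha they were 1929, 843 and 1088. The order of these genes was the same in each library. At Nle/Sf3b1 the values were 1179, 494 and 679. At mRpL39/Prosbeta2 they were 1081, 520 and 559, and at CG1105/CG1965 they were 1654, 800 and 847. At GlnRS/RIOK2 they were 1171, 469.6 and 703, at wfs1/Nup133 941, 434 and 489, and at elm/MED27 823, 393 and 415. Replicate 2 had the higher signal of the 2 libraries at each of these stretches.

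The strongest member lay between Rpn6 (FBgn0028689), which encodes a lid subunit of the proteasome, and ave (FBgn0050476), an adaptor in Ras signalling, at chr2R:14752019-14752737. Its signal was 2618 in the joint list, 1177 in replicate 1 and 1423 in replicate 2. The TSSs were 250 bp apart, the summit was 149 bp from ave, and the 50 bp on either side of the summit held 4 CGATA words but no DRE core. Next came RpL32 (FBgn0002626), a protein of the large ribosomal subunit, with CG7943 at chr3R:30045905-30046547, where the signal was 1987 (860 and 1145 in replicates 1 and 2). A second proteasome gene, Prosalpha7 (FBgn0023175), with CG1671 at chr2R:9847628-9848181, had 1948 (803 and 1146). The ubiquitin ligase gene Ube3a (FBgn0061469) with CG7600, 203 bp apart at chr3L:11210327-11211019, had 1866 (772 and 1088). Of the 15 strongest members, 7 had TSSs 200 to 300 bp apart and 9 had no DRE core within 50 bp of the summit. Over all 1664 members these counts were 417 and 1127. A core was present there in 45.4% of the 832 members with the highest signal and 19.1% of the 832 with the lowest. Members made up 45.8% of the 500 strongest peaks (interval 41.4 to 50.3) and 12.6% of the 1000 weakest (interval 10.6 to 14.8).

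The annotation held 2667 head-to-head pairs, and 1598 of them, or 59.9% (interval 58.0 to 61.8), had a summit between their TSSs. The share was 48.7% in the list of replicate 1 alone, 62.8% in that of replicate 2 alone and 46.2% with peaks above the median signal. The replication-dependent histone genes form a repeated cluster with 42 of these pairs, and none of the 42 had a summit. Without them the share was 60.9%. As background, 39.8% of the 13968 protein-coding genes had a summit within 500 bp of a TSS, against 65.1% (interval 63.8 to 66.5) of the 5052 genes in head-to-head pairs. Of the 1069 pairs without a summit, 267 still had an entry in the ranked list of each replicate, the longer lists that preceded the filter, and 522 had none in either.

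The share of pairs with a summit was highest at a TSS distance of 200 to 300 bp and lowest in the widest pairs. Classes of distance include their upper limit. With histones left out it was 63.8% of 426 pairs at up to 100 bp, 68.9% of 318 at 100 to 200 bp and 70.5% of 542 at 200 to 300 bp. It was 61.6% of 667 pairs at 300 to 500 bp and 46.7% of 672 at 500 to 1000 bp. Classes follow the closest TSSs of a pair, but a summit between any of its TSSs at most 1000 bp apart counted. At up to 100 bp 272 pairs had a summit, while the closest flanking TSSs were that near in 155 members. A summit could count for several pairs, at most 21, so the pairs are not independent of each other. The interval of the widest class, 42.9 to 50.6, lay below those of the other 4 classes. The interval at 200 to 300 bp, 66.4 to 74.3, overlapped those at 100 to 200 bp and at up to 100 bp (59.1 to 68.4). The highest share was thus not separated from those of the closer classes. Pairs with a DRE core between the TSSs had a summit in 79.2% of 1020 cases and pairs without one in 49.2% of 1605. Within each class the pairs with a core were ahead, from 78.9% against 57.8% in the closest pairs to 67.2% against 30.9% in the widest. A wider interval has more room for a word and for a summit, so the shares within classes are the closer comparison.

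**Figure D1:**
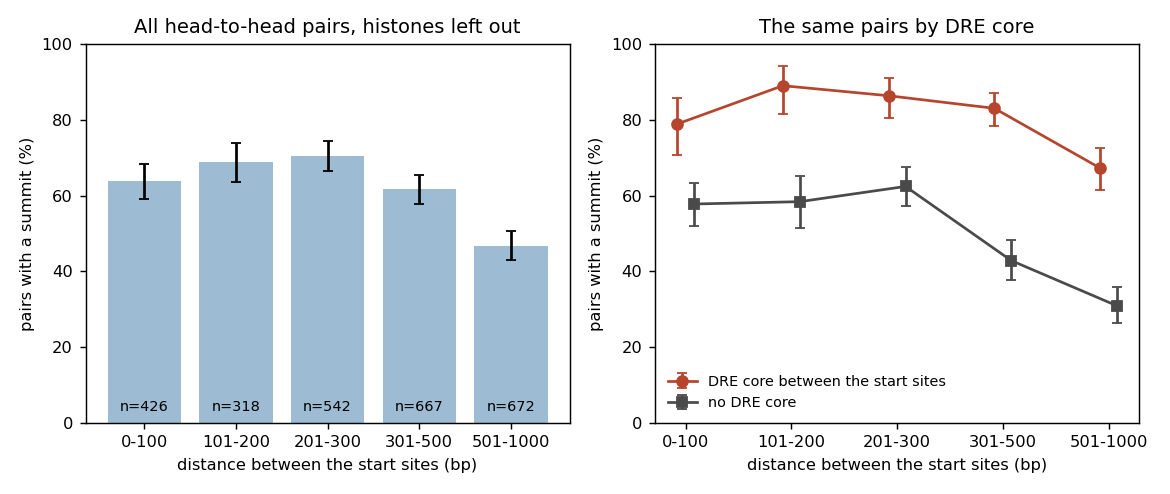
Share of annotated head-to-head pairs with a summit between their TSSs, by TSS distance in bp, with histone pairs left out; bars or points are percentages of pairs and whiskers exact 95% intervals. Classes follow the closest TSSs of a pair, and a summit between any of its TSSs at most 1000 bp apart counts. The left panel peaks at 70.5% for 200 to 300 bp and falls to 46.7% for 500 to 1000 bp. In the right panel pairs with a DRE core lie above pairs without one in every class.

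Seen from the gene, the share with a nearby summit was lower at greater distance to the nearest head-to-head neighbour. A summit lay within 500 bp of a TSS in 79.9% of the 1431 genes with a neighbour at up to 200 bp, histones left out. The share was 70.7% of 2297 genes at 200 to 500 bp and 42.0% of 1237 at 500 to 1000 bp. Beyond the limit used here it was 32.6% of 1121 genes at 1000 to 2000 bp and 22.0% of 5654 genes with a neighbour over 5000 bp away or none. A summit between close TSSs counts for each gene of the pair, which raises these shares. When a summit counted only for the gene with the nearest TSS, the shares were 45.6% at up to 200 bp, 42.3% at 200 to 500 bp, 36.6% at 500 to 1000 bp and 21.8% in the last class. The order from near to far neighbours was the same in both counts, with smaller steps in the second.

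**Figure D2:**
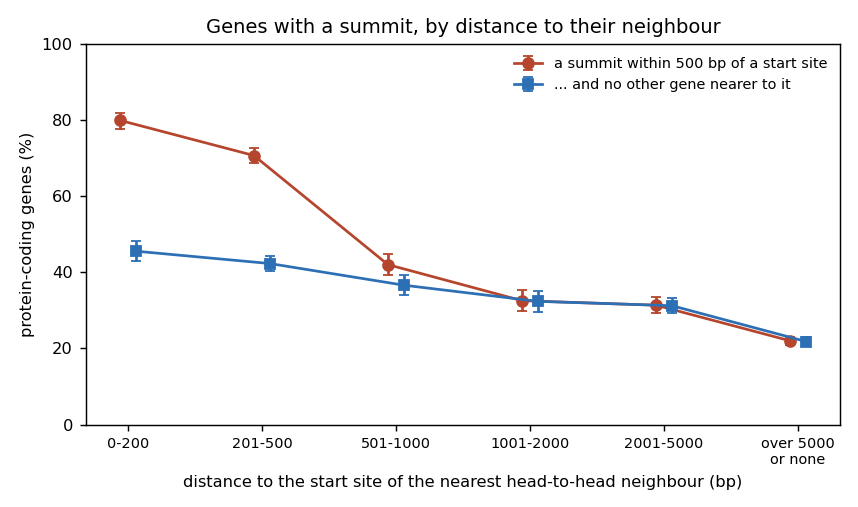
Percentage of protein-coding genes, histones left out, with a summit within 500 bp of a TSS (circles) and with a summit to which no other gene is nearer (squares), against the distance in bp to the nearest head-to-head neighbour; whiskers are exact 95% intervals. Circles fall from 79.9% to 22.0% and squares from 45.6% to 21.8%.

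The position of the summit changed with the width of the stretch. Over all members the nearer TSS was a median of 69 bp away (quartiles 34 and 109) and the farther 235 bp. The summit was within 200 bp of both TSSs in 43.7%. The rule bounds these distances, since a summit between close TSSs is near each of them wherever it lies. Summits nearer to the gene on the left made up 48.1% (interval 45.7 to 50.6). At 200 to 300 bp, 79.1% of the 417 summits fell in the central 50% of the interval, a median of 29.5 bp from its middle. At 300 to 500 bp 41.0% of 497 did so, and at 500 to 1000 bp 20.6% of 422. In the widest class the nearer TSS was a median of 67.5 bp away and the farther 568 bp. Most summits there thus stood nearer to 1 promoter and far from the other. The nearer TSS was 1 to 150 bp away in 75.4% of this class.

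Hsp68 and SMC1 show the wide case. Their TSSs are 977 bp apart, and the only summit (chr3R:24057967-24058510) lay 57 bp from SMC1, which encodes a cohesin subunit, and 920 bp from the heat shock gene Hsp68. Its signal was 1630 in the joint list, 681 in replicate 1 and 948 in replicate 2. CycB, a mitotic cyclin, and stl are 912 bp apart, and the summit lay 94 bp from CycB with a signal of 896 (390.5 and 514 in replicates 1 and 2). In each of these cases the summit was at the start of 1 gene only.

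**Figure D3:**
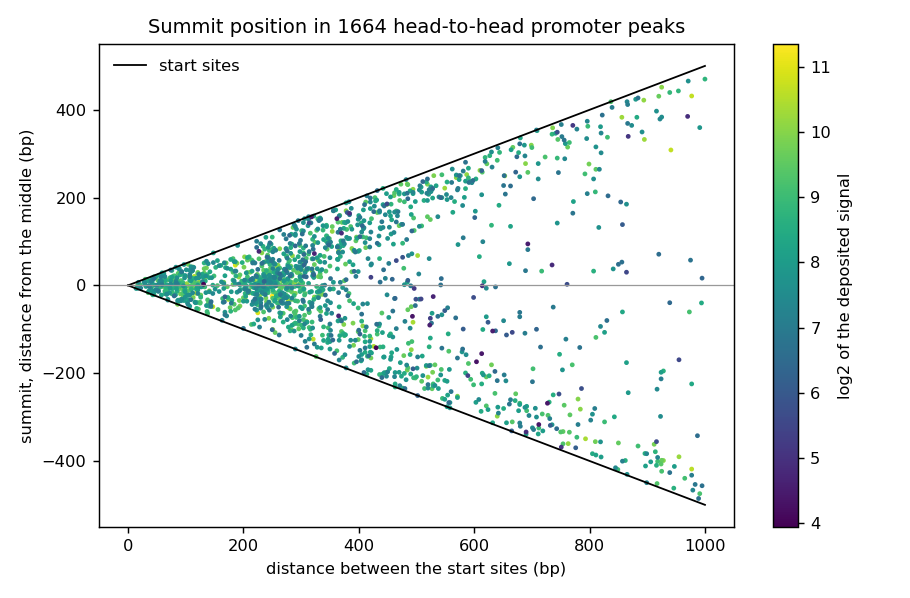
Position of the summit in each of the 1664 members: the horizontal axis is the distance between the TSSs in bp, the vertical axis the distance of the summit from the middle of the interval in bp, black lines the start sites and colour the log2 of the deposited signal. Summits gather around the middle at about 200 to 300 bp (median 29.5 bp off the middle) and follow the start sites in wider pairs (median 249.5 bp off the middle at 500 to 1000 bp).

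The DRE core was present within 50 bp on either side of the summit in 32.3% of members (537 of 1664, interval 30.0 to 34.6), against 24.0% of other promoter peaks (interval 22.5 to 25.4) and 12.8% of windows of the same length that end at each protein-coding TSS. Among the 1976 other promoter peaks whose summit lay upstream of the nearest TSS, the share was 31.9%, which lies within the interval of the members. CGATA was present in 51.1% of members, 39.1% of other promoter peaks and 46.9% of the upstream ones. The M1BP site was rare in each, at 3.91% and 4.14%, with intervals that overlap. GAGAG, a word of GAGA factor, was present in 5.89% of members, 16.9% of other promoter peaks and 19.1% of the upstream ones, and TATAAA in 18.1%, 9.51% and 10.9%. Members were also richer in A and T, with a median GC content of 36.6% against 44.6% and 43.6%. The part of base composition in these word counts was not tested. In the windows that end at each protein-coding TSS, GAGAG was present in 15.4% and TATAAA in 18.2%. Windows at the middle of head-to-head pairs without a summit, histones left out, held GAGAG in 8.18% and TATAAA in 20.2%. Their intervals overlapped those of members, so neither share was particular to members. The median GC content of these middle windows was 33.7%, so a low GC content was not particular to members either.

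Among members the share with a core at the summit had a minimum at 200 to 300 bp. It was 52.3% at up to 100 bp (interval 44.1 to 60.3), 34.7% at 100 to 200 bp and 14.9% at 200 to 300 bp (interval 11.6 to 18.7). It was 34.2% at 300 to 500 bp and 38.9% at 500 to 1000 bp. The same members did hold cores elsewhere between their TSSs. At 200 to 300 bp, 43.2% had a core somewhere in the interval, close to the 43.9% at up to 100 bp and 44.5% at 100 to 200 bp. The share was 65.2% at 300 to 500 bp and 66.4% at 500 to 1000 bp. These shares do not account for the length of the interval. At up to 100 bp the window at the summit can reach past the TSSs. The cores at 200 to 300 bp stood a median of 34.5 bp from a TSS. There the summit was a median of 70.5 bp from the nearest core, against 11.5 bp at up to 100 bp and 37.5 bp at 500 to 1000 bp. A core on each side of the summit was present in 31 of the 417. Summit windows of this class were also the most AT-rich, with a median GC content of 28.7% against 46.5% at up to 100 bp and 40.6% at 500 to 1000 bp, and 31.2% held TATAAA. Sonicated fragments of 200 to 800 bp are as long as these intervals, and whether a summit marks the place of contact or the middle between contacts was not tested.

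**Figure D4:**
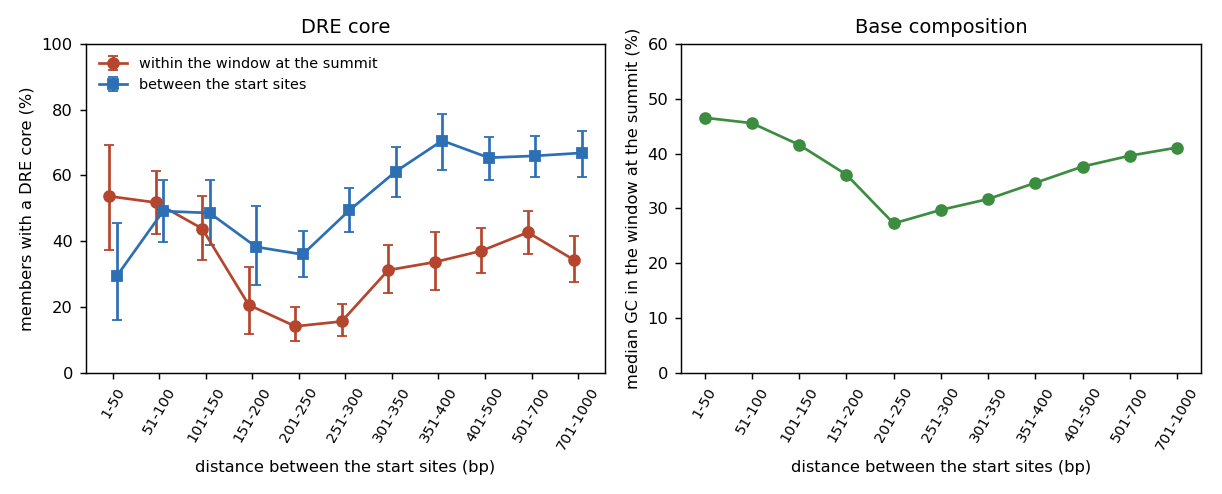
Left, percentage of members with a DRE core within 50 bp of the summit (circles) and anywhere between the TSSs (squares), with exact 95% intervals; right, median GC content in percent of the same window; both by TSS distance in bp. From 200 to 300 bp the share at the summit is 14.9% while 43.2% hold a core between the TSSs, and the GC content is lowest.

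The signal of members was higher than that of other promoter peaks. In the joint list the median was 287 (quartiles 167 and 545, range 15.4 to 2618) against 166 (quartiles 112 and 310). The replicate peaks overlapping them had medians of 123 against 63.8 in replicate 1 and 175 against 116 in replicate 2, so the direction was the same in each library. As a difference of median log2 signal this was 0.79 in the joint list, 0.94 in replicate 1 and 0.60 in replicate 2. Members lie upstream of their genes by construction. Against the 1976 other promoter peaks that also lay upstream of their nearest TSS, whose median was 210, the difference was 0.45. Signal was highest at TSS distances of up to 300 bp, with medians of 354, 376 and 349 in the first 3 classes, and lower at 300 to 500 bp (270) and 500 to 1000 bp (231).

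The difference depended on where the DRE core was. With a whole core within 50 bp of the summit, members had a median of 414 (n = 537) and other promoter peaks 450 (n = 804). Without one there, members had 229 (n = 1127) and the others 143 (n = 2552). Splitting all peaks by the distance from the summit to the middle of the nearest core, and keeping the strongest of each group of overlapping peaks, located the difference more closely. With a core at most 50 bp away the medians were 441 for members and 460 for the others. With the nearest core 51 to 250 bp away they were 440 (n = 342) and 215 (n = 336). In that class the replicate 1 medians were 182 and 81.6, and those of replicate 2 were 263 and 135. With no core within 250 bp they were 200 and 150. With all peaks kept the joint medians at these 3 distances were 418, 347 and 189 for members and 446, 149 and 141 for the others. The gap between members and other promoter peaks was therefore widest where the nearest core was 51 to 250 bp away. This held in the joint list and in each replicate. Members had the lower median where the core was within 50 bp. The other promoter peaks here include those not upstream of their nearest TSS, and this split was not repeated with the upstream ones alone.

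**Figure D5:**
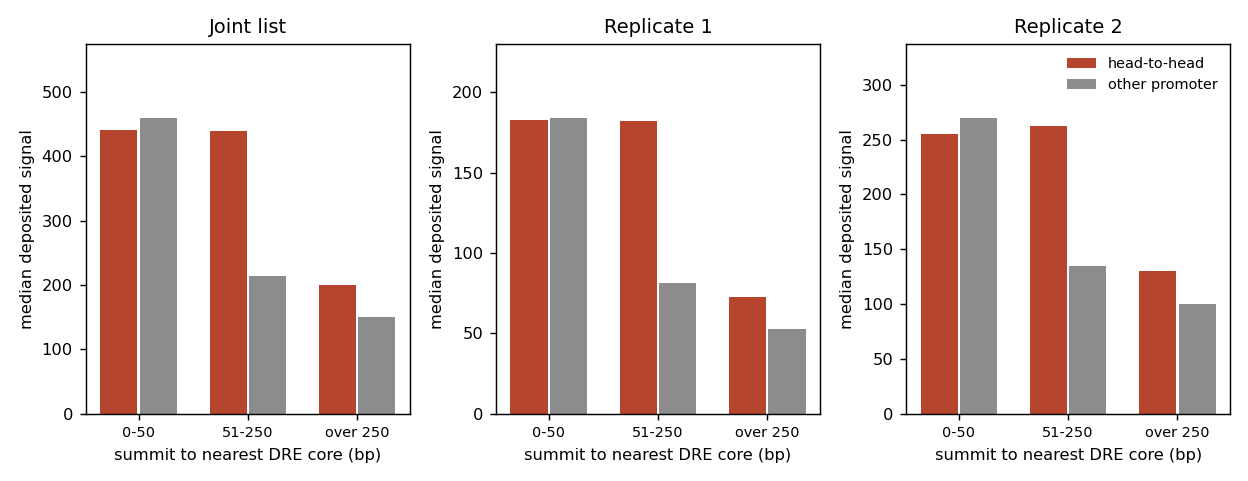
Median deposited signal (arbitrary units, axes starting at 0) of head-to-head promoter peaks and other promoter peaks by distance in bp from the summit to the nearest DRE core, in the joint list and in the overlapping peaks of each replicate; 1 peak was kept of each group of overlapping peaks. Other promoter peaks include those not upstream of their nearest TSS. The bars differ most at 51 to 250 bp, with 440 against 215 in the joint list, 182 against 81.6 in replicate 1 and 263 against 135 in replicate 2.

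In members lacking the core at the summit the median signal was 237 at up to 100 bp, 258 at 100 to 200 bp, 315 at 200 to 300 bp, 210 at 300 to 500 bp and 166 at 500 to 1000 bp. The class at 200 to 300 bp had the highest of these medians, also in replicate 1 (125) and replicate 2 (196), but many of its members held a core elsewhere between the TSSs. With no core anywhere between the TSSs the medians were 250.2, 232, 238, 164 and 163 in the same order, so that the first 3 classes were close to each other and above the wider ones. At 200 to 300 bp the 180 members with a core between the TSSs had a median of 539, against 238 for the 237 without.

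Members recurred in the single libraries. A filtered peak of each replicate overlapped 82.9% of them (1380 of 1664, interval 81.0 to 84.7), beside 66.0% of all arm peaks and 64.7% of other promoter peaks. Replicate 1 alone covered 84.0% and replicate 2 alone 97.2%. The summits of the replicates were a median of 23 bp apart at members, and the Spearman rho of their signals was 0.87 over 1658 members, beside 0.75 over 3332 other promoter peaks and 0.80 over 5910 arm peaks. The joint list was filtered on the reproducibility of ranks between the replicates, so a high rho and overlap with each replicate were selected for. With a DRE core within 50 bp of the summit, a filtered peak of each replicate overlapped 93.9% of members and 90.3% of other promoter peaks. Without a core there these shares were 77.7% and 56.6%. The log2 ratio of replicate 2 to replicate 1 had a median of 0.53 and quartiles of 0.26 and 0.88. The strongest members that no filtered peak of replicate 1 overlapped were Cortactin/AnxB9, genes of an actin regulator and an annexin, with 592 in the joint list, 296 in replicate 1 and 311 in replicate 2, and Rpt2/CG13599 with 256, 81.1 and 174. Rpt2 encodes an ATPase of the proteasome. PGAP2/Clp followed with 254, 76.0 and 163. In each case the unfiltered list of replicate 1 held a peak, so the library was not empty there.

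A minority of pairs had more than 1 summit. Of the 1462 closest pairs, 1272 had 1 summit, 178 had 2 and 12 had 3 or more. In 110 of the 178, 1 summit was nearer to each gene. The summits were a median of 207 bp apart and at least 199 bp, while the TSSs of these pairs were a median of 478.5 bp apart. Such a spacing by itself can place the summits on opposite sides of the middle. How far it sets the count of 110 was not tested. The peaks overlapped in 140 pairs, and whether these are separate sites was not tested. The stronger had a median of 2.74 times the signal of the weaker. TAF1B, which serves transcription of ribosomal RNA genes, and Invadolysin (chr3R:10144028-10144818, TSSs 484 bp apart) had 3 summits of 862, 340 and 112, at 49, 249 and 452 bp from the left TSS. The immune gene imd and Dp1 had summits of 484 and 588, at 37 bp from imd and 94 bp from Dp1, and another of 135 between other start sites of the same genes. There the 2 strong summits stood at opposite promoters. The weakest members were CG12948/PpD3 at 15.4, CG13698/mRpS26 at 16.1 and CG14995/Fit1 at 19.7. At CG12948/PpD3 the overlapping replicate peaks had 393 and 482, with a replicate 1 summit 184 bp away, so a low joint value there stood beside a strong peak.

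Of the cytosolic and mitochondrial ribosomal protein genes 59.8% and 79.5% stood in a head-to-head pair, against 36.2% of all protein-coding genes. Among the genes of such pairs, most lists of genes used in most cells had a higher share with a summit than all genes, with intervals that held the share of all genes. As background, 59.8% of the 5052 genes were in a pair with a summit. Of the cytosolic ribosomal protein genes in pairs, 37 of 55 had a summit between the TSSs, or 67.3% (interval 53.3 to 79.3). Of the mitochondrial ribosomal protein genes 40 of 58 did, of the proteasome genes 19 of 26, of oxidative phosphorylation genes 31 of 46 and of aminoacyl-tRNA synthetase genes 16 of 23. Each of these shares was above the background and each interval held it. The same was true of spliceosome genes (23 of 31), replication and cell cycle genes (21 of 29), nucleoporins (13 of 18), translation initiation factors (14 of 21), RNA polymerase and TFIID genes (24 of 38), V-ATPase (10 of 14), vesicle coat and Sec genes (11 of 15), insulator and promoter factors (5 of 8), heat shock genes (5 of 8) and mitochondrial import genes (3 of 5). Shares below the background, with intervals that held it, were those of the CCT chaperonin (4 of 7), mitochondrial DNA maintenance genes (3 of 6) and Mediator subunits (8 of 21, or 38.1%, interval 18.1 to 61.6).

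Examples give the range within these lists. RpS7, a small-subunit ribosomal protein gene, and Anp are 928 bp apart, and the summit lay 65 bp from RpS7 with a signal of 1007 (426 and 566 in replicates 1 and 2). The Mediator gene MED7 and Cap-H2, of condensin, had 1598 (680 and 906), although most Mediator genes in pairs had no summit. The kinase gene aurA with CG3281 had 1029 (507 and 517). COX7B, of respiratory complex IV, with Sec3 had 1059 (448 and 613). At the low end of the named members, PolrMT, the mitochondrial RNA polymerase, with CG14339 had 108 (48.5 and 76.5). The insulator genes Ibf1 and Ibf2, whose proteins act together, have TSSs 463 bp apart. The summit lay 7 bp from Ibf2 with a signal of 340 (131 and 208).

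Lists of genes used in few cells stood lower. Of the chemoreceptor genes in pairs 6 of 26 were in a pair with a summit, or 23.1% (interval 8.97 to 43.6). Of the list taken by cuticle protein symbols 2 of 13 were. These were Cpr, which the symbol pattern admitted although it is a cytochrome P450 reductase gene, and Cpr60D, opposite the respiratory complex I gene ND-19. Of the male reproductive genes 3 of 10 were, with an interval of 6.67 to 65.2 that holds the background. The partner of such a gene was often of another kind. Ir31a, an ionotropic receptor gene, shares its stretch with CG17768, where the summit lay 32 bp from CG17768 and 330 bp from Ir31a with a signal of 549. The seminal fluid gene Sfp26Ad shares its stretch with Gpdh1, glycerol-3-phosphate dehydrogenase, and had 231. Of the histone genes 2 of 87 were in a pair with a summit, both variants outside the repeated cluster. His2Av with the kinase gene ball had 667 (282 and 390 in replicates 1 and 2), and His3.3A with CG14036 had 401 (167 and 249). Of the 42 pairs of the repeated cluster, 1 had an entry in the ranked list of a replicate. It is unknown how reads from this cluster were handled, so its lack of summits is only known as absence from the conservative list.

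The members just inside the 1000 bp limit were CG15213/Yod1 (1000 bp, signal 438), bsk/CG31717 (995 bp, 104) and Rbbp5/eRF1 (995 bp, 82.2). The peaks just outside it were CG2217/mRpS18C (1003 bp, 522), raptor/Nep1 (1004 bp, 230) and CG5805/Ets96B (1006 bp, 128). Apart from Rbbp5/eRF1, where the summit was 514 and 481 bp from the genes, each of these summits lay within 132 bp of a TSS.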

How the data were processed

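Peak lists on dm6, filtered or ranked by the irreproducible discovery rate per the file headers of the deposited listing, were used as the authors deposited them. The signal of each peak and the offset of its summit are deposited values. Nothing used here names the aligner, peak caller, control or scaling (not given in the sources used here), and without read counts no depth or precision per library can be stated. The main set was the conservative list. Summits (start plus offset) were placed on the Ensembl BDGP6.54 annotation (release 115), using every TSS of a protein-coding gene, and the closest flanking TSSs named the pair. Sequence came from the RefSeq Release 6 genome, and 99.99% of 13956 genes had the same coordinates in both annotations. Replicate peaks were matched by an overlap of at least 1 bp. Words (12) were counted on either strand within 50 bp of the summit, and the 22 gene lists were made by symbol.

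Python 3.11.15, pandas 2.3.3, numpy 2.4.6 and scipy 1.17.1 were used. The steps were tested on simulated data, and all 39 true members of 600 simulated TSS pairs were recovered with 0 false ones. Named members were the 15 strongest found in each replicate, the 2 strongest of each gene list, the 3 on either side of the limit, the 3 pairs with most summits, the 3 weakest and the 3 strongest without a filtered replicate 1 peak. The members, lists and words were chosen with earlier results of these data known. The split by distance to the nearest DRE core, the comparison with upstream peaks and the finer distance classes were chosen after seeing these values. Tests between groups were not possible with 1 group.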

Additional observations from a re-analysis of the deposited data

How the results depend on the processing

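The share of peaks between head-to-head genes (27.9%) was 25.2% in the optimal list, 40.3% among peaks above the median signal, 21.4% with only the outermost TSS of each gene and 20.9% with a limit of 500 bp, and 23.4% to 33.7% in the lists of single replicates. Pairs with a summit (59.9%) were 63.1%, 46.2%, 52.5% and 62.3% under the same 4 settings and 48.7% to 62.8% in single replicates. Genes in a pair with a summit (59.8%) were 63.1%, 46.5%, 52.2% and 61.8%, then 65.1% for a summit within 500 bp of a TSS, and 49.1% to 62.9% in single replicates. The log2 difference in median signal from other promoter peaks (0.79) was 0.87 in the optimal list and 0.23 above the median signal. It was 0.86 with a limit of 500 bp and 0.74 against peaks within 200 bp of a TSS. In the lists of single replicates, each with its own peaks, it was 0.69 to 0.74. At the peaks of the joint list it was 0.94 in replicate 1 and 0.60 in replicate 2. Among settings chosen after seeing the data it was 0.45 against upstream peaks, 0.68 without a DRE core at the summit and -0.12 with one, where the direction turned. Recurrence in each replicate (82.9%) was 78.8% in the optimal list and 95.9% above the median signal. Starting from the list of replicate 1 it was 98.0%, and from that of replicate 2 79.0%. In these 2 cases only overlap with the other replicate could fail. The distance to the nearer TSS (69 bp) was 63 bp with outermost TSSs and 65 to 70 bp in single replicates. The DRE core share (32.3%) was 40.3% above the median signal, 35.6% with outermost TSSs, 34.6% with 1 peak per overlapping group and 21.0% in 51 bp windows, and 31.8% to 36.5% in single replicates. The M1BP share (3.91%) was 1.80% in 51 bp windows and 3.34% to 4.36% in single replicates. Smaller windows and stricter lists hold less sequence or fewer peaks by construction, and other causes were not tested. Of the 65 values of these main results under other settings, 39 moved by more than their spread, 25 stayed within it and 1 turned. For shares the spread was the exact interval. For signal and the distance to the nearer TSS it was the standard deviation of the values from the 2 replicate lists. These counts therefore pool unlike limits. Of 172 values for gene lists, whose intervals are wide, 12 moved. No paired analysis was possible because there was only 1 group. Depth is unknown, so absence of a peak is only absence from the lists.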

Other observations

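Peaks between head-to-head genes were spread over the large arms in similar shares. They made up 27.4% of 1034 peaks on 2L, 26.8% of 1277 on 2R, 25.4% of 1216 on 3L, 30.5% of 1375 on 3R and 30.0% of 1034 on X. On chromosome 4, which has 11 annotated head-to-head pairs, 1 of 19 peaks was a member. A member with the word CAGGTA of the early activator Zelda at the summit was rare (1.92% of members against 2.23% of other promoter peaks), and CAGCTG, an E-box, was present in 8.59% against 12.1%. The motif known as Ohler 7 was present in 7.21% of members and 6.17% of other promoter peaks, with intervals that overlap.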
